A study of Mus musculus with 11 samples.

Results

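Neuropeptide precursors are the proteins from which neurons cut small secreted signalling peptides. The 10 precursor genes described here, Grp, Cartpt, Npy, Sst, Tac1, Adcyap1, Scg2, Gal, Penk and Vip, were found on the array through the platform annotation, by probe sets for which it gives the member's symbol and no other. They had 12 probe sets among 45037 (control probe sets left out), and were 10 of the 18193 genes that the annotation names. Where a gene had several probe sets, the one with the highest mean over all arrays stands for it. Adcyap1 and Tac1 had a second probe set, which is given separately. The arrays came from C57/BL6 mouse embryos that carried the Hb9::GFP reporter, in which the promoter of a motor neuron homeobox gene drives green fluorescent protein. All 3 cell types share this reporter and strain, and the labels give no embryonic age and no pooling of embryos. Phrenic motor neurons (4 arrays), whose axons form the nerve of the diaphragm, were labelled by a red fluorescent dextran taken up through the phrenic nerve of trunk explants and were then sorted from dissociated spinal cord. LMC radial motor neurons (3 arrays) were labelled in the same way through the radial nerve, which supplies forelimb extensor muscles, LMC being the usual abbreviation of the lateral motor column. C3-C5 GFP-only neurons (4 arrays) are known from the labels by the segments and the reporter alone, so they may span several motor columns. The LMC radial titles name no segment, so segment and type cannot be told apart in comparisons with that type. The labels do not say whether arrays of one type came from separate litters, and p-values therefore cover only the spread among these arrays, which may be technical.

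A neuropeptide precursor enters the secretory pathway, is sorted into dense-core vesicles and is cut there by prohormone convertases and carboxypeptidases before calcium-triggered release. The peptides act mostly on G protein-coupled receptors, more slowly and over longer distances than acetylcholine, the main transmitter of motor neurons. In the embryonic spinal cord several precursors are made by neurons long before synapses mature, and their transcripts are widely used as markers of neuron subtypes.

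Several neuropeptide promoters carry the cyclic AMP response element TGACGTCA, to which CREB and related factors bind. The 250 bases upstream of the annotated start are printed to show which members hold the element. Printed are the members that differed between cell types and have a promoter in the RefSeq table (build GRCm38.p6). Grp, which also differed, was left out. Each is given 5′ to 3′ on the strand of its gene, in lower case, with TGACGTCA in capitals, or else its core TGACG or the reverse complement CGTCA. The windows lie at chr13:99900684-99900933 for Cartpt (minus strand), chr16:23890845-23891094 for Sst (minus strand), chr1:79440027-79440276 for Scg2 (minus strand), chr6:7554811-7555060 for Tac1 (plus strand) and chr6:49822460-49822709 for Npy (plus strand). The annotated spans of Cartpt and Sst reach further upstream than the starts used here, so another annotated transcript covers those windows.
Cartpt: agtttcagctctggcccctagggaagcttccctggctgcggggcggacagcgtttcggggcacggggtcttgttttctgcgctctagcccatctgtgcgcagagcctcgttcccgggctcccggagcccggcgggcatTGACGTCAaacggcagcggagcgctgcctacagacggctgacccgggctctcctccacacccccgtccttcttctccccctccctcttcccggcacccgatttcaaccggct
Sst: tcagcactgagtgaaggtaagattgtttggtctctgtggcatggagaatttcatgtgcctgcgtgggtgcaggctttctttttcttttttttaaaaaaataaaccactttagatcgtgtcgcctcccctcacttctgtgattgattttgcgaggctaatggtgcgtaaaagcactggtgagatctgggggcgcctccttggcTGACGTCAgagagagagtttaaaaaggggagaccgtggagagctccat
Scg2: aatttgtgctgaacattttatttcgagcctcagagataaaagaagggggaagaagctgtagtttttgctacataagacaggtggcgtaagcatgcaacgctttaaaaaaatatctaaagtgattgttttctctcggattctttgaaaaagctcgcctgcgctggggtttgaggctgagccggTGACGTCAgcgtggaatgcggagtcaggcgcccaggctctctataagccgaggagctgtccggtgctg
Tac1: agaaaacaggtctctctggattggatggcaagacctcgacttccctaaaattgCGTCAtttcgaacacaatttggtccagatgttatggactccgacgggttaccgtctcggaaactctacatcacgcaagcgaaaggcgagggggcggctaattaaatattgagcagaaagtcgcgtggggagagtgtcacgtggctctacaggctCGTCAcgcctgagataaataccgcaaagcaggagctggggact
Npy: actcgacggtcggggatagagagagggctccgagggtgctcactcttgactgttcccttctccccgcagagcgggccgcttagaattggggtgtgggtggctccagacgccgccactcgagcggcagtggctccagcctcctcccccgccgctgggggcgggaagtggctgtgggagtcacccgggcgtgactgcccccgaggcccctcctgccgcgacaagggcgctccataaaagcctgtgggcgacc

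The full element stood 112 bases upstream of the Cartpt start, 48 bases upstream of the Sst start and 68 bases upstream of the Scg2 start. It occurred in 3 of the 8 members with a searched window, against 1.55% of all 32851 promoter windows of this length. Grp was left out and Penk had no window. The core alone, searched on both strands and contained in every full match, occurred in 6 of the 8 members, against 17.8% of all windows. In Tac1 it lay 197 and 43 bases upstream, in Vip 79 bases upstream, and Adcyap1 held it as well. Neither set of letters was found in the windows of Npy and Gal. The motif was chosen after the windows had been seen, and a match is a description of the sequence only. The genes with the full element did not share one pattern across the cell types: Cartpt and Scg2 were lowest in phrenic neurons, whereas Sst was lowest in LMC radial neurons, as the values below show.

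The array medians ran from 4.48 to 4.63 on the log2 scale of robust multi-array average (RMA) values. The LMC radial medians (4.48 to 4.51) lay below all others (4.54 to 4.63). The LMC radial 25th percentiles (3.32 to 3.38) lay above all others (3.18 to 3.30). Between 7 and 8 of the 8 motor neuron markers, such as Chat and Isl1, lay above the array median in every array, but their levels differed between the types. In LMC radial against C3-C5 GFP-only neurons 3 of them were lower and 0 higher (5 lower and 1 higher at an unadjusted p under 0.05 in limma), with a median difference of -0.60 over the list: Isl1 by -2.36 ± 0.45 (limma adjusted p = 0.0177), Isl2 by -1.05 ± 0.18 (limma adjusted p = 0.01) and Mnx1 by -0.93 ± 0.11 (limma adjusted p = 0.00193). Phrenic neurons were higher than LMC radial neurons in Isl1 (2.69 ± 0.45, limma adjusted p = 0.00521) and Mnx1 (0.87 ± 0.11, limma adjusted p = 0.00123) and lower than C3-C5 GFP-only neurons in Isl2 (-0.99 ± 0.16, limma adjusted p = 0.0105). These shifts go with the LMC radial comparisons of the members, and their part in them was not tested. Phrenic arrays correlated with each other at 0.965 to 0.985, the C3-C5 GFP-only arrays at 0.989 to 0.996 and the LMC radial arrays at 0.987 to 0.990, across probe sets. The mean of 18 mesenchyme and cartilage markers ranged from 5.32 to 7.07 in phrenic arrays, from 4.57 to 5.01 in C3-C5 GFP-only arrays and from 5.22 to 6.33 in LMC radial arrays, and was highest in phrenic arrays 3 and 4. All phrenic and LMC radial means lay above all C3-C5 GFP-only means. In comparisons with C3-C5 GFP-only neurons, marker mean and type are therefore not separate. Lum was below the array median in all arrays, Acan in all phrenic and C3-C5 GFP-only arrays. The arrays also fell into a set of 7 with 25th percentiles of 3.26 to 3.38 and a set of 4, phrenic 2 and 3 and C3-C5 GFP-only 2 and 3, with 3.18 to 3.20. The difference between the 3′ and 5′ control probe sets of Actb, a sign of RNA integrity, was 1.01 to 1.12 in all LMC radial arrays. It was 1.05 to 2.15 in phrenic and 1.07 to 1.98 in C3-C5 GFP-only arrays. In the set of 4 arrays it ran from 1.71 to 2.15. In the set of 7 it ran from 1.01 to 1.29, apart from phrenic array 4 (1.96). All LMC radial arrays lie in the set of 7, so set and type are not separate there. The part of these measures in the results was not tested beyond the fits given beside them.

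Grp, Cartpt and Scg2 were lowest in phrenic neurons, and Grp and Cartpt rose stepwise from phrenic through C3-C5 GFP-only to LMC radial neurons. Npy, Sst and Tac1 were low in LMC radial neurons, where Npy differed from both other types. Tac1 was higher in C3-C5 GFP-only neurons than in both other types. Gal, Penk, Vip and the representative probe set of Adcyap1 did not pass the test in any of the 3 pairwise comparisons. A difference passed when its limma p, adjusted over all 45037 probe sets within the comparison, was under 0.05. By this rule 6 members passed in at least 1 pairwise comparison, 2 of them in all 3, and 13 of the 30 member comparisons passed. Of all probe sets, 1.96% passed between phrenic and C3-C5 GFP-only neurons and 6.61% between phrenic and LMC radial neurons. Between LMC radial and C3-C5 GFP-only neurons 3.76% passed. The share of all probe sets passing in at least 1 or in all 3 comparisons was not counted. Nor was the share with an unadjusted p under 0.05 in limma, in any comparison or setting. In sorted cells measured in bulk, fewer cells making a transcript and less transcript per cell cannot be told apart.

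**Figure D1:**
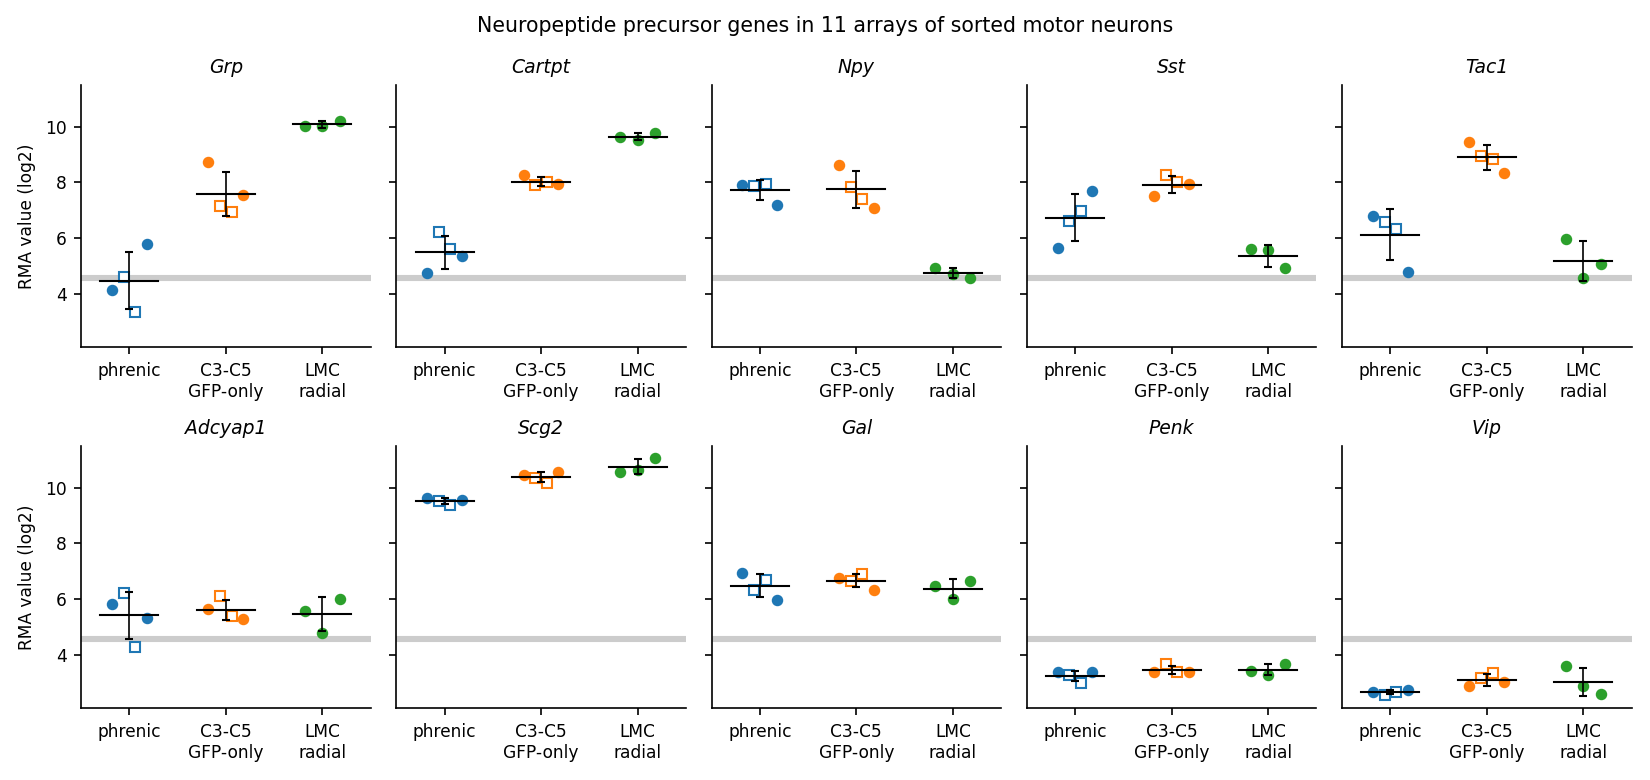
RMA values (log2, vertical axis) of the 10 neuropeptide precursor genes in each array, grouped by cell type, with the mean and SD of each type as black lines. Filled circles are the 7 arrays of the higher 25th percentile, open squares the other 4, and the grey band spans the array medians; Grp and Cartpt climb from left to right, Npy drops to the band in LMC radial arrays, and Penk and Vip lie below it throughout.

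Grp encodes the precursor of gastrin-releasing peptide, a bombesin-like peptide known from itch circuits of the dorsal horn. Its phrenic arrays read 4.13, 4.61, 3.34 and 5.79, its C3-C5 GFP-only arrays 8.73, 7.14, 6.92 and 7.56, and its LMC radial arrays 10.03, 10.01 and 10.22. The 3 ranges did not overlap, and 2 of the phrenic values lay below every array median. The means were 4.47 ± 1.02 (SD, n = 4), 7.59 ± 0.80 (SD, n = 4) and 10.09 ± 0.12 (SD, n = 3). Phrenic neurons were lower than C3-C5 GFP-only neurons by a log2 difference of -3.12 ± 0.49 (SE; limma adjusted p = 0.00801), at least 5.24-fold when values under 5, a level just above the array medians, are raised to 5. They were lower than LMC radial neurons by -5.62 ± 0.53 (limma adjusted p = 0.000139), at least 29.7-fold, the largest difference among the members. LMC radial neurons exceeded C3-C5 GFP-only neurons by 2.50 ± 0.53 (limma adjusted p = 0.0283), or 5.66-fold. This last difference kept its sign but did not pass when any one of C3-C5 GFP-only arrays 2, 3 and 4 or any LMC radial array was left out, with adjusted p up to 0.0948.

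Cartpt encodes the precursor of CART peptides, which are linked to feeding and reward in the adult brain. Its values were 4.75, 6.21, 5.61 and 5.37 in phrenic arrays, 8.25, 7.92, 8.00 and 7.94 in C3-C5 GFP-only arrays and 9.62, 9.53 and 9.79 in LMC radial arrays (chromosome 13, 99898483 to 99910179). The 3 types were separate in every array, with the widest spread among the phrenic arrays. The means were 5.49 ± 0.60 (SD, n = 4), 8.03 ± 0.15 (SD, n = 4) and 9.64 ± 0.13 (SD, n = 3). Phrenic neurons lay -2.54 ± 0.25 from C3-C5 GFP-only neurons (limma adjusted p = 0.000406), a 5.83-fold lower level. They lay -4.16 ± 0.27 from LMC radial neurons (limma adjusted p = 9.38e-06), 17.9-fold lower, and this was the smallest adjusted p among the members. With values under 5 raised to 5 the folds are at least 5.58 and 17.1. LMC radial neurons were 3.07-fold above C3-C5 GFP-only neurons, a log2 difference of 1.62 ± 0.27 (limma adjusted p = 0.00913). Cartpt thus had the same order of types as Grp, with each step passing the test.

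Scg2 encodes secretogranin II, a granin of dense-core vesicles and the precursor of secretoneurin (chromosome 1, 79434366 to 79440026). It read 9.62, 9.53, 9.39 and 9.55 in phrenic arrays, 10.46, 10.36, 10.18 and 10.58 in C3-C5 GFP-only arrays and 10.57, 10.63 and 11.06 in LMC radial arrays. All phrenic values lay below all others, while the highest C3-C5 GFP-only value, 10.58, passed the lowest LMC radial value, 10.57. The difference of phrenic from C3-C5 GFP-only neurons was -0.87 ± 0.13 (limma adjusted p = 0.00648, 1.83-fold), and that from LMC radial neurons was -1.23 ± 0.14 (limma adjusted p = 0.000552, 2.35-fold). LMC radial and C3-C5 GFP-only neurons differed by 0.36 ± 0.14, with a 95% interval of 0.05 to 0.67, which did not pass (limma adjusted p = 0.191). Scg2 thus changed in the same direction as Grp and Cartpt in phrenic neurons, by a far smaller amount and from a high level.

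Npy encodes the precursor of neuropeptide Y, a modulator of transmitter release in brain, spinal cord and sympathetic nerves (chromosome 6, 49822710 to 49829507). Its values were 7.90, 7.87, 7.95 and 7.20 in phrenic arrays, 8.64, 7.85, 7.42 and 7.09 in C3-C5 GFP-only arrays and 4.91, 4.73 and 4.55 in LMC radial arrays. Phrenic and C3-C5 GFP-only arrays overlapped, and all LMC radial values lay under 5, near the array medians. The means were 7.73 ± 0.36 (SD, n = 4), 7.75 ± 0.67 (SD, n = 4) and 4.73 ± 0.18 (SD, n = 3). Phrenic neurons exceeded LMC radial neurons by 3.00 ± 0.32 (limma adjusted p = 0.000325), at least 6.64-fold. LMC radial neurons lay -3.02 ± 0.32 from C3-C5 GFP-only neurons (limma adjusted p = 0.000882), at least 6.71-fold lower. The difference between phrenic and C3-C5 GFP-only neurons was -0.02 ± 0.30 with a 95% interval of -0.67 to 0.64 (limma adjusted p = 0.991), so a change of up to about that size in either direction is not excluded by these arrays. Npy was the only member higher in phrenic than in LMC radial neurons by this test.

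Sst encodes the precursor of somatostatin, an inhibitory peptide of many interneurons (chromosome 16, 23889573 to 23891342). Its values were 5.66, 6.62, 6.96 and 7.69 in phrenic arrays, 7.50, 8.27, 8.00 and 7.94 in C3-C5 GFP-only arrays and 5.60, 5.58 and 4.91 in LMC radial arrays. The phrenic arrays spread widely and their highest value lay above the lowest C3-C5 GFP-only value, whereas their lowest value barely cleared the LMC radial arrays. The means were 6.73 ± 0.84 (SD, n = 4), 7.93 ± 0.32 (SD, n = 4) and 5.36 ± 0.39 (SD, n = 3). LMC radial neurons were lower than C3-C5 GFP-only neurons by -2.56 ± 0.39 (limma adjusted p = 0.00636), at least 5.79-fold. The phrenic level lay between them and passed against neither, at -1.20 ± 0.36 from C3-C5 GFP-only neurons (95% interval -1.99 to -0.40, limma adjusted p = 0.149) and 1.37 ± 0.39 from LMC radial neurons (95% interval 0.51 to 2.23, limma adjusted p = 0.0651). Single arrays and other settings changed this. The first difference passed without phrenic array 4 (-1.51, limma adjusted p = 0.0268). The second passed without phrenic array 1 (1.73, limma adjusted p = 0.00882). With all arrays kept, the first also passed with array weights, and with the mesenchyme marker mean or the Actb difference as a covariate. The second also passed with array weights and with a trended, robust prior. Phrenic arrays 3 and 4, the highest in Sst, were also the highest in the mesenchyme marker mean, at 6.75 and 7.07 against 5.82 and 5.32 in arrays 1 and 2. With those arrays left out, an alternative added after the data had been seen, the difference from C3-C5 GFP-only neurons was -1.79 (limma adjusted p = 0.0162).

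Tac1 encodes the tachykinin precursor that yields substance P and neurokinin A (chromosome 6, 7555061 to 7562978). Its values were 6.78, 6.59, 6.32 and 4.77 in phrenic arrays, 9.46, 8.95, 8.83 and 8.35 in C3-C5 GFP-only arrays and 5.96, 4.55 and 5.06 in LMC radial arrays. Every C3-C5 GFP-only value lay above every other value, and the phrenic and LMC radial arrays overlapped because of phrenic array 4. The means were 6.12 ± 0.92 (SD, n = 4), 8.90 ± 0.45 (SD, n = 4) and 5.19 ± 0.71 (SD, n = 3). Phrenic neurons were below C3-C5 GFP-only neurons by -2.78 ± 0.44 (limma adjusted p = 0.00851), and LMC radial neurons by -3.71 ± 0.48 (limma adjusted p = 0.00254). These are 6.62-fold and at least 11.8-fold with values under 5 raised to 5. Phrenic and LMC radial neurons differed by 0.93 ± 0.48, with a 95% interval of -0.13 to 1.98, which did not pass (limma adjusted p = 0.286). Without phrenic array 4 this difference was 1.38 and passed (limma adjusted p = 0.0346).

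Gal, the precursor of galanin, was present at a moderate level in every array, from 5.98 to 6.95. Its means of 6.49 ± 0.43 in phrenic, 6.66 ± 0.24 in C3-C5 GFP-only and 6.38 ± 0.34 in LMC radial neurons lay within the spread of the arrays. Penk, the precursor of the enkephalins, read from 2.98 to 3.67 and Vip, the precursor of vasoactive intestinal peptide, from 2.56 to 3.59. Both were below the median of every array, so these arrays give them no measured level above background in any type. The phrenic values of Vip did not overlap those of C3-C5 GFP-only neurons, but the difference of -0.44 ± 0.19 did not pass (limma adjusted p = 0.357).

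Adcyap1 encodes the precursor of PACAP, a peptide that raises cyclic AMP and that motor neurons are known to make after injury (chromosome 17, 93198245 to 93206541). Its 2 probe sets disagreed. The brighter one, 1441778_at, which represents the gene by the rule, read 5.83, 6.23, 4.27 and 5.34 in phrenic, 5.64, 6.11, 5.39 and 5.29 in C3-C5 GFP-only and 5.56, 4.80 and 6.02 in LMC radial arrays. The types overlapped throughout, and its differences of -0.19, -0.04 and -0.15 did not pass. The other, 1423427_at, read 4.82, 4.95, 4.57 and 4.91 in phrenic, 5.67, 6.11, 5.82 and 5.52 in C3-C5 GFP-only and 4.85, 4.58 and 4.70 in LMC radial arrays. Here every C3-C5 GFP-only value lay above all others. Phrenic neurons lay -0.97 ± 0.14 from C3-C5 GFP-only neurons (limma adjusted p = 0.00547) and LMC radial neurons -1.07 ± 0.15 (limma adjusted p = 0.00445). Phrenic and LMC radial neurons differed by 0.10 ± 0.15 (limma adjusted p = 0.745). All phrenic and LMC radial values lay under 5, and raised to 5 they leave at least 1.72-fold for each type. With both Adcyap1 sets averaged, the differences from C3-C5 GFP-only neurons were -0.58 in phrenic and -0.61 in LMC radial neurons and did not pass. The order of types in 1423427_at is the one that Tac1 also shows in its representative set, 1416783_at. The second Tac1 set, 1431883_at, read from 2.53 to 2.93, below the median of every array, and gives no information on the gene. With both sets averaged, the Tac1 differences from C3-C5 GFP-only neurons were -1.42 in phrenic (limma adjusted p = 0.00439) and -1.77 in LMC radial neurons (limma adjusted p = 0.00215), smaller because the dim set enters the mean.

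**Figure D2:**
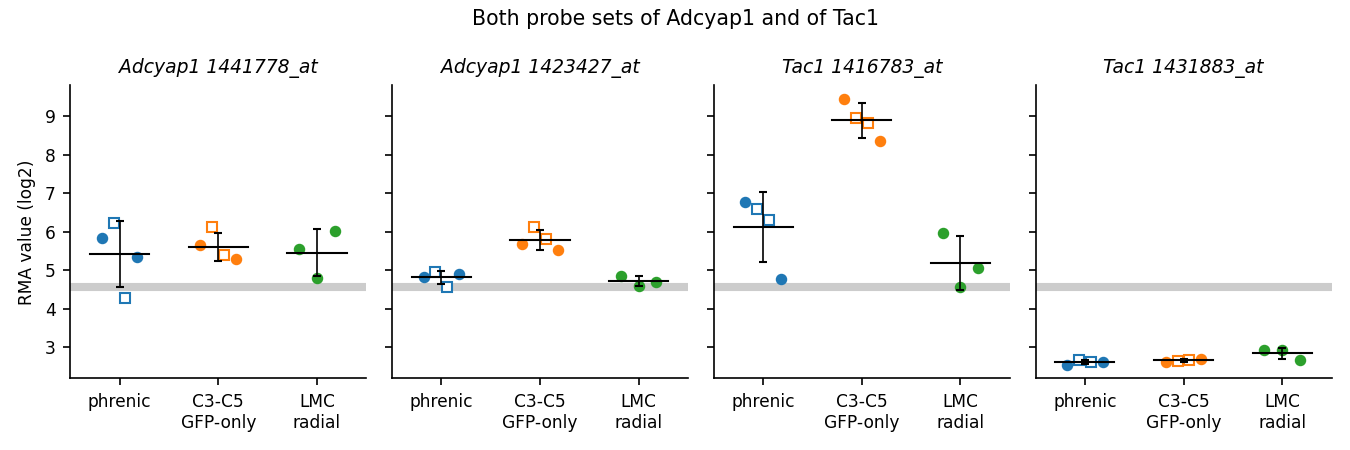
RMA values (log2, vertical axis) of both probe sets of Adcyap1 and both of Tac1 in each array, by cell type, with mean and SD as black lines, symbols for the array sets as in the plot of all members, and the array medians as a grey band. For Adcyap1 the set 1423427_at separates C3-C5 GFP-only arrays from the rest while 1441778_at does not; for Tac1 only 1416783_at rises above the band.

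Against C3-C5 GFP-only neurons, 4 of the 10 members passed in phrenic neurons, all lower: Grp, Cartpt, Tac1 and Scg2. Of all probe sets 1.96% passed in this comparison, 0.973% as higher and 0.986% as lower. No member was higher by limma's adjusted p, and at an unadjusted p under 0.05 the counts were 0 higher and 6 lower. The share of all probe sets at that unadjusted threshold was not counted. The arrays of the types did not overlap for 5 members, which adds Vip, against 7.49% of all probe sets. The median difference over the members was -0.66, beside 0.0066 over all genes. Among the 7 arrays of the higher 25th percentile only Cartpt passed (-3.03, limma adjusted p = 0.0143), and among the other 4 only Tac1 (-2.44, limma adjusted p = 0.0274), while Grp kept differences of -3.18 and -3.05. Of all probe sets 0.282% and 0.353% passed in these fits. In this comparison 3 of the 18 mesenchyme and cartilage markers, Fn1, Foxc1 and Postn, were higher in phrenic neurons, and at an unadjusted p under 0.05 in limma 12 were higher and 0 lower, with a median difference of 1.48 over the list. With the marker mean as a covariate Cartpt still passed (-2.22, limma adjusted p = 0.0364) and Sst passed (-2.26, limma adjusted p = 0.0424), whereas Grp (-3.09, limma adjusted p = 0.163), Tac1 (-1.79, limma adjusted p = 0.322) and Scg2 (-0.65, limma adjusted p = 0.259) did not. The marker means of these types do not overlap, so covariate and type are not separate here. Calls over all probe sets fell from 882 to 241 with the covariate. Without phrenic arrays 3 and 4, the added alternative, 5 members passed: Grp, Cartpt, Sst, Tac1 and Scg2.

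Against LMC radial neurons, 4 members passed in phrenic neurons, with Npy higher and Grp, Cartpt and Scg2 lower. The share of all probe sets that passed was 6.61%, with 3.48% higher and 3.14% lower. Higher calls were 52.6% of all calls, 39.1% after median centring, 42.5% after quantile normalization, 64.3% with values under 5 raised to 5 and 72.6% with dim probe sets left out, and the same 4 members passed under each of these. The arrays did not overlap for these and for Sst, 5 members, against 18.7% of all probe sets. The member median of -0.13 lay near that of all genes, -0.0048, since members moved in both directions. None of the mesenchyme markers passed in this comparison, with 2 higher and 2 lower at an unadjusted p under 0.05 in limma. With the Actb difference as a covariate the calls over all probe sets fell from 2979 to 1026, and the members differed by -5.32 for Grp, -4.40 for Cartpt, 3.06 for Npy and -1.10 for Scg2. All 4 member differences passed under every setting tried, including the fit on the 7 arrays of the higher 25th percentile alone, where Grp differed by -5.13, Cartpt by -4.58, Npy by 2.82 and Scg2 by -1.17.

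Between LMC radial and C3-C5 GFP-only neurons, 5 members passed, with Grp and Cartpt higher and Npy, Sst and Tac1 lower in LMC radial neurons. The share over all probe sets was 3.76%, with 1.88% in each direction. Higher calls were 50% of all calls, 64.1% after median centring, 31.4% with values under 5 raised to 5 and 19.1% with dim probe sets left out, and the same 5 members passed under each of these. The arrays of the 2 types did not overlap for these 5, against 23.1% of all probe sets. The member median was -0.11, beside 0.0059 over all genes. Within the arrays of the higher 25th percentile, which leave 2 C3-C5 GFP-only arrays, none of the 5 passed by limma's adjusted p and 5 members had an unadjusted p under 0.05. Of all probe sets 0.218% passed in that fit. The member differences in it were 1.94 for Grp, 1.55 for Cartpt, -3.13 for Npy, -2.36 for Sst and -3.72 for Tac1. Of the 18 mesenchyme markers 0 passed in this comparison by limma, with 9 higher and 0 lower in LMC radial neurons at an unadjusted p under 0.05 and a median difference of 1.04. Their array means did not overlap between these types. With their mean as a covariate the calls over all probe sets fell from 1694 to 580. Among the members Grp then did not pass (2.52, limma adjusted p = 0.128), while Cartpt (1.86), Npy (-2.79), Sst (-3.35) and Tac1 (-2.98) passed. With the Actb difference as a covariate Grp did not pass either (2.29, limma adjusted p = 0.128) and the other 4 did.

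**Figure D3:**
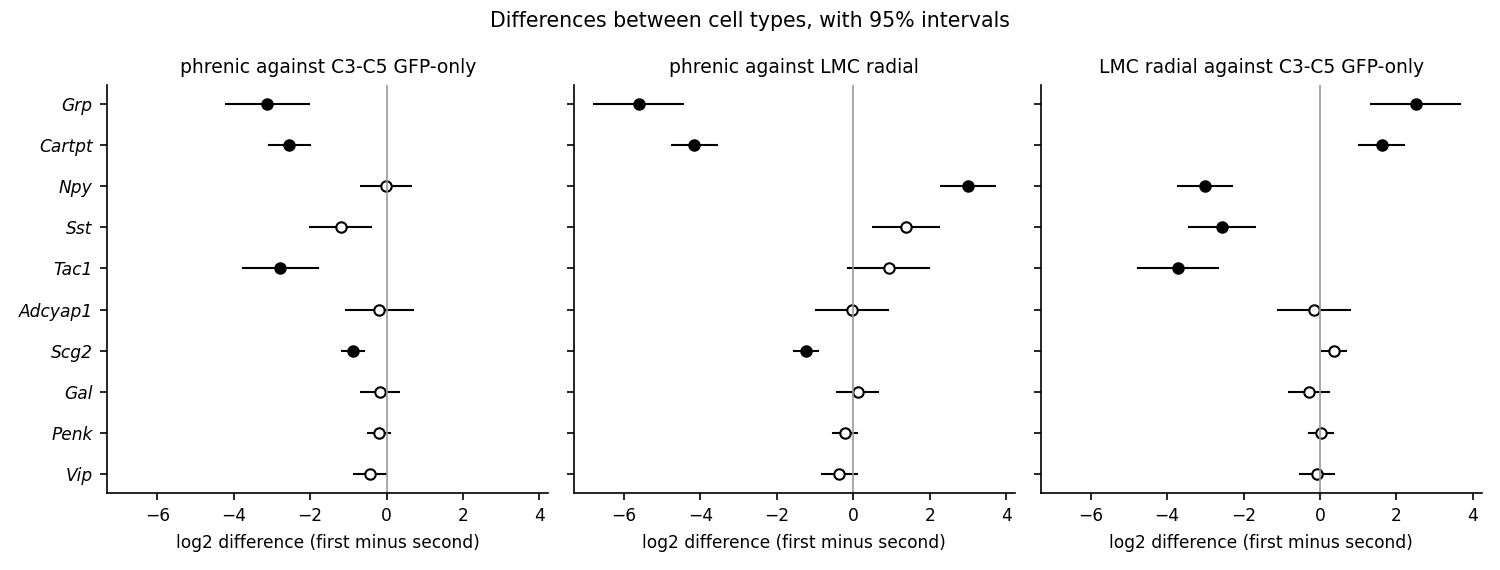
Differences between cell types (log2, horizontal axis, first type minus second) for the 10 members, 1 panel per pairwise comparison, with 95% intervals from limma. Filled circles passed and open circles did not: 4 filled in each phrenic comparison and 5 between LMC radial and C3-C5 GFP-only neurons, with the widest step at Grp between phrenic and LMC radial neurons (-5.62).

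The series design sets each type against the rest, so each type was also compared with the mean of the other types. These comparisons use the same arrays as the pairwise ones and do not add to them. A call against that mean need not hold against both other types. Pairwise, Npy did not pass between phrenic and C3-C5 GFP-only neurons, nor Scg2 between LMC radial and C3-C5 GFP-only neurons. Sst did not pass between phrenic neurons and either other type, nor Tac1 between phrenic and LMC radial neurons. In phrenic neurons Npy was higher (1.49 ± 0.26) and Grp (-4.37 ± 0.44), Cartpt (-3.35 ± 0.22) and Scg2 (-1.05 ± 0.12) were lower, 4 members against 3.85% of all probe sets (2.4% higher, 1.45% lower). In LMC radial neurons Grp (4.06 ± 0.47), Cartpt (2.89 ± 0.24) and Scg2 (0.80 ± 0.13) were higher and Npy (-3.01 ± 0.28), Sst (-1.97 ± 0.35) and Tac1 (-2.32 ± 0.42) lower, 6 members against 7.02% (3.65% higher, 3.37% lower). In C3-C5 GFP-only neurons Tac1 (3.25 ± 0.39), Sst (1.88 ± 0.32) and Npy (1.52 ± 0.26) were higher, 3 members against 0.973% (0.691% higher, 0.282% lower). Several of these calls were lost under other settings. With values under 5 raised to 5, Npy in phrenic (1.36, limma adjusted p = 0.0553) and Sst in LMC radial neurons (-1.94, limma adjusted p = 0.0511) did not pass. With the Actb covariate Sst (-1.39, limma adjusted p = 0.0748) and Scg2 (0.68, limma adjusted p = 0.0557) did not pass in LMC radial neurons. On the arrays of the higher 25th percentile alone, Npy did not pass in phrenic neurons (1.25, limma adjusted p = 0.241), nor did Sst, Tac1 and Scg2 in LMC radial neurons (adjusted p from 0.0945 to 0.159). Tac1 in LMC radial neurons also did not pass without LMC radial array 2 (-2.0, limma adjusted p = 0.0547). The last count fell to 1 without C3-C5 GFP-only array 2 or 3 or without any one of the LMC radial arrays, and to 2 without C3-C5 GFP-only array 4. The share of all probe sets passing in these fits was 0.264% to 0.808%, against 0.973%.

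Of the 13 pairwise member differences that passed, 12 passed with every single array left out, the exception being Grp between LMC radial and C3-C5 GFP-only neurons. All 13 kept their sign under every setting tried, and 4 passed under all of them, those between phrenic and LMC radial neurons.

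**Figure D4:**
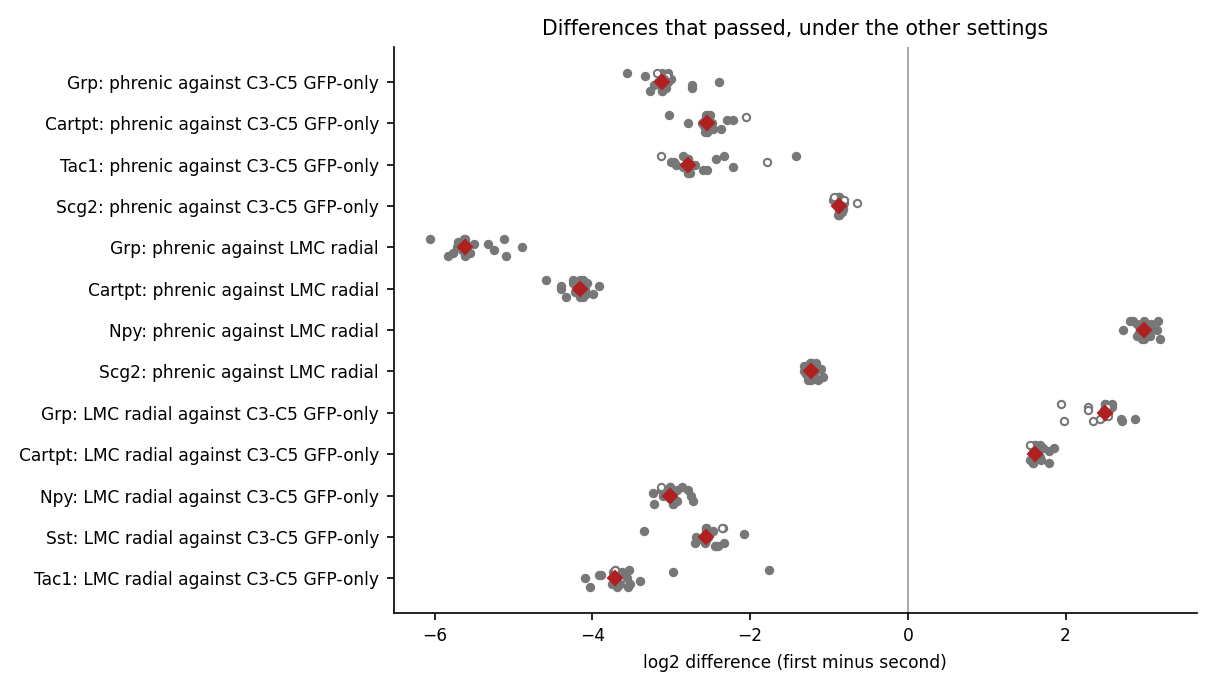
The 13 pairwise differences that passed (log2, horizontal axis), as red diamonds, and the same differences under each other setting as grey points, filled where limma's adjusted p was under 0.05 and open where it was not. Every point lies on the same side of 0 as its diamond, and the 4 phrenic against LMC radial rows hold filled points only.

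Of 48 other precursors listed, 38 were measured, and between 21 and 23 of these were below the array median in every array of a type. In phrenic against C3-C5 GFP-only neurons 2 were lower and 0 higher (0 higher and 6 lower at an unadjusted p under 0.05 in limma). Vgf, the precursor of several secretory peptides, had means of 7.67 ± 0.20 in phrenic, 8.73 ± 0.36 in C3-C5 GFP-only and 9.17 ± 0.30 in LMC radial neurons. It was lower in phrenic neurons by -1.05 ± 0.19 (limma adjusted p = 0.018) and -1.49 ± 0.21 (limma adjusted p = 0.0018) against the other types, in the direction of Scg2. Uts2, the other gene that passed, lay under the array medians in all types. Against LMC radial neurons 2 were lower, Vgf and Adm, and 1 higher, Nppa, the precursor of atrial natriuretic peptide (0.92 ± 0.18, limma adjusted p = 0.0128). Adm, the precursor of adrenomedullin, differed by -2.78 ± 0.61 (limma adjusted p = 0.021), and its phrenic arrays ran from 5.24 to 8.67. Between LMC radial and C3-C5 GFP-only neurons Uts2 alone passed, as lower.

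Of 21 measured genes of the granins and of the machinery that sorts and cuts precursors, 17 or 18 lay above the array median in each array. The prohormone convertase Pcsk2 was listed but not measured. Cadps2, which primes dense-core vesicles for release, followed the reverse order of Grp and Cartpt. Its means were 10.20 ± 0.12 in phrenic, 7.90 ± 0.18 in C3-C5 GFP-only and 5.88 ± 0.21 in LMC radial neurons. Phrenic neurons were higher by 2.29 ± 0.13 (limma adjusted p = 1.13e-05) and 4.31 ± 0.14 (limma adjusted p = 1.03e-07), and LMC radial neurons lay -2.02 ± 0.14 from C3-C5 GFP-only neurons (limma adjusted p = 4.75e-05). Pcsk1, a prohormone convertase, was measured at 5.55 ± 0.62 in phrenic neurons and lay below every array median in the other types. It passed against both C3-C5 GFP-only (limma adjusted p = 0.0114) and LMC radial neurons (limma adjusted p = 0.000897), at least 1.46-fold higher against each with values under 5 raised to 5. Cpd, a carboxypeptidase, was higher in phrenic neurons by 0.61 ± 0.14 (limma adjusted p = 0.0492) and 1.05 ± 0.15 (limma adjusted p = 0.00203), and Ptprn, a dense-core vesicle membrane protein, by 0.86 ± 0.20 against LMC radial neurons (limma adjusted p = 0.029). Scg3, a granin, was lower than in C3-C5 GFP-only neurons by -0.44 ± 0.09 (limma adjusted p = 0.0356). In all, 3 genes were higher and 2 lower in phrenic than in C3-C5 GFP-only neurons (the other lower one, Pcsk5, is under the medians), and 4 were higher and 0 lower than in LMC radial neurons (5 higher and 1 lower at an unadjusted p under 0.05 in limma). Between LMC radial and C3-C5 GFP-only neurons Cadps2 was the 1 gene that passed.

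Receptors of the member peptides were mostly not measured above background: 17 of 22 lay below the array median in every phrenic array and 16 in every array of each other type. Tacr3, the neurokinin B receptor, was lower in phrenic than in C3-C5 GFP-only neurons by -1.23 ± 0.25 (limma adjusted p = 0.0343), with means of 4.97 ± 0.48 and 6.20 ± 0.25. Npy1r, a receptor of neuropeptide Y, passed as higher by 0.71 ± 0.14 (limma adjusted p = 0.0283), though its means of 4.32 and 3.61 were both below the array medians. Against LMC radial neurons only Oprk1 passed, at values under 4. Between LMC radial and C3-C5 GFP-only neurons 0 receptors passed by limma, with 4 higher and 2 lower at an unadjusted p under 0.05.

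Interneurons and sensory neurons are known to make several of these peptides, and their own markers were read on the same arrays. Of 15 measured spinal interneuron markers, only Gata3 passed, at values under 4 in all types. At an unadjusted p under 0.05 in limma, 3 were higher and 0 lower in phrenic against C3-C5 GFP-only neurons. The counts were 3 higher and 1 lower in phrenic against LMC radial neurons, and again in LMC radial against C3-C5 GFP-only neurons. The array mean of the list ran from 4.27 to 5.38 in phrenic arrays, against 4.08 to 4.30 in C3-C5 GFP-only and 4.12 to 4.61 in LMC radial arrays. Of 7 measured sensory neuron markers, 4 or 5 lay above the array median in each array. Pou4f3 and Scn10a lay below it in all arrays, and the others measured were Ntrk2, Ntrk3, Pou4f1, Avil and Runx1. By limma 0 of them passed in any pairwise comparison (1 higher and 1 lower at an unadjusted p under 0.05 in phrenic against C3-C5 GFP-only neurons). The part of such cells in the member differences was not tested.

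The genes whose values over the 11 arrays were most like those of each member were taken from 7156 genes with a range of at least 1 on the log2 scale. They are a description, since all points share the 3 types. For Grp they were Gfra1, a co-receptor of the neurotrophic factor GDNF (Pearson r 0.982), and Rnf220 (0.978). For Cartpt they were Plcb4 (0.987) and Lypd6b (0.977), and for Scg2 Lypd6b (0.967) and Slit1 (0.956). For Npy they were Kcnc1, a voltage-gated potassium channel (0.971), and St6galnac5 (0.971). For Sst they were Mecom (0.947) and Pnma1 (0.940), and for Tac1 the retinoic acid receptor Rarb (0.948) and Myl6b (0.935).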

How the data were processed

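The files hold log2 expression values from single-colour Affymetrix arrays, deposited by the authors as 1 table for all 11 arrays and summarised by RMA, per the submitters' processing notes. Its version, background settings and array exclusions are not given in the sources used here. RMA makes the value distributions of arrays alike, so levels are relative within an array, and levels of different probe sets are not comparable. Control probe sets (64) were not used. Of the 45037 others, 34945 had 1 symbol in the platform annotation, 932 several and 9160 none. limma (version 3.58.1, R 4.3.3) was fitted to all 11 arrays with a mean per type, which left 8 residual degrees of freedom, and p-values were adjusted by the Benjamini-Hochberg method over all probe sets within each of 6 comparisons. The tests are two-sided. The number of arrays limits the precision.

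The members and gene lists were chosen with earlier results of these data known. All members are named whatever their result; of the other lists, up to 4 genes with the smallest adjusted p per list and comparison are named, and any further gene was chosen after its values were seen. Deviations from the type means of same-numbered phrenic and C3-C5 GFP-only arrays correlated at 0.125 to 0.224, which is the sole basis for a pairing; those of different numbers ran from -0.254 to 0.280. All 8 pairs within an array set correlated above 0 and all 8 across the sets below 0, and every same-numbered pair lies within a set. LMC radial arrays did not pair (-0.083 to 0.050 with either type). No pair of arrays of one type shared more than 1286 identical values. Alternatives were other normalizations, dim probe sets, a floor of 5, the prior, array weights, a replicate block, averaged probe sets, each array left out, the array sets, and the mesenchyme mean or the 3′ to 5′ difference of Actb as covariates. Leaving out phrenic arrays 3 and 4 was added after the data had been seen.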

Additional observations from a re-analysis of the deposited data

Results flagged for a closer look

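Each type with 4 arrays was examined for every member probe set, 24 groups in all, for an array far from the others (its gap to the nearest array over the range of the type above Dixon's critical value of 0.829). Chance gives about 1 such array in 20 groups, and 2 were found. Npy read 7.20 in phrenic array 4, against 7.87 to 7.95 in the other phrenic arrays, a ratio of 0.886. That array also had the highest mesenchyme marker mean, and the part of this in the value was not tested. Penk read 3.66 in C3-C5 GFP-only array 2, while the other arrays of that type all read 3.37, and all of these lie below the array medians.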

How the results depend on the processing

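Leaving out single arrays gave 4 to 5 passing members between phrenic and C3-C5 GFP-only, 4 to 5 between phrenic and LMC radial and 4 to 5 between LMC radial and C3-C5 GFP-only neurons. Against the mean of the other types it gave 4 in phrenic, 5 to 6 in LMC radial and 1 to 3 in C3-C5 GFP-only neurons. Counts moved by over 1.5 times in these cases. Between phrenic and C3-C5 GFP-only neurons 1 member passed within the arrays of the higher 25th percentile, 1 within those of the lower, and 2 with the mesenchyme mean as a covariate, against 4. Of all probe sets 0.282%, 0.353% and 0.535% passed in these fits, against 1.96%. Between LMC radial and C3-C5 GFP-only neurons 0 passed within the higher set (5 at an unadjusted p under 0.05 in limma), against 5. The share of all probe sets there was 0.218%, against 3.76%. For LMC radial neurons against the mean of the others 3 passed within the higher set, against 6, and 1.22% of all probe sets, against 7.02%. For C3-C5 GFP-only neurons against the mean of the others 1 passed with values below 5 raised to 5, 0 within the higher set (4 at an unadjusted p under 0.05 in limma) and 1 with the mesenchyme covariate, against 3. Of all probe sets 0.444%, 0.0533% and 0.167% passed in these fits, against 0.973%. Fewer arrays enter the fits within sets, and the cause was not tested for the others.

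The replicate block gave 4, 5 and 5 members in the pairwise comparisons. It changed 1 member call: Tac1 passed between phrenic and LMC radial neurons (1.24, limma adjusted p = 0.0341), types that share only a number. Grp between LMC radial and C3-C5 GFP-only neurons also did not pass with the array set as a term (1.98, limma adjusted p = 0.0705), with the mesenchyme covariate (2.52, limma adjusted p = 0.128) or with the Actb covariate (2.29, limma adjusted p = 0.128). Median centring moved the median difference of all probe sets between phrenic and LMC radial neurons from -0.013 to -0.10. Over all settings the calls in the whole table ran from 127 to 1300 (882 as reported) between phrenic and C3-C5 GFP-only, 778 to 4266 (2979) between phrenic and LMC radial and 98 to 6685 (1694) between LMC radial and C3-C5 GFP-only neurons.

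Only differences that did not pass changed sign. Between phrenic and C3-C5 GFP-only neurons Npy was 0.13 with array weights, 0.28 within the lower set, 0.29 with the mesenchyme covariate, 0.14 without phrenic arrays 3 and 4 and -0.24 to 0.28 with single arrays left out. There Adcyap1 was 0.12 within the higher set, 0.92 with the mesenchyme covariate, 0.42 without phrenic arrays 3 and 4 and -0.46 to 0.19 with single arrays left out, and Gal was 0.17 with the mesenchyme covariate. Between phrenic and LMC radial neurons Adcyap1 was 0.16 with array weights, 0.075 with the floor of 5, 0.028 with the replicate block, 0.031 with averaged probe sets, 0.13 within the higher set, 0.25 with the mesenchyme covariate, 0.18 with the Actb covariate, 0.57 without phrenic arrays 3 and 4 and -0.37 to 0.34 with single arrays left out. Gal was -0.16 after quantile normalization and -0.078 to 0.28 with single arrays left out. Between LMC radial and C3-C5 GFP-only neurons Adcyap1 was 0.12 after quantile normalization, 0.66 with the mesenchyme covariate and -0.43 to 0.18 with single arrays left out. Penk was -0.085 after quantile normalization, -0.035 with array weights, -0.0034 with the array set as a term and -0.082 to 0.11 with single arrays left out. Vip was 0.016 after median centring, 0.081 within the higher set and -0.36 to 0.13 with single arrays left out.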

Other observations

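Markers of other peptide-bearing neurons held some differences outside the members. Of 6 measured autonomic neuron markers, Th, which makes the precursor of the catecholamines, was lower in phrenic than in C3-C5 GFP-only neurons (means 4.15 ± 0.27 and 5.79 ± 0.55, limma adjusted p = 0.00613). Ddc, which acts in the same synthesis, was lower in LMC radial than in C3-C5 GFP-only neurons (3.91 ± 0.52 and 5.78 ± 0.43, limma adjusted p = 0.019). Dbh and Phox2a, which mark noradrenergic neurons, lay below the array median in all C3-C5 GFP-only arrays. Of 12 measured glia and progenitor markers, Slc1a3, a glutamate transporter of radial glia, was higher in phrenic than in C3-C5 GFP-only neurons (means 6.59 ± 0.78 and 4.86 ± 0.13, limma adjusted p = 0.045). Of 11 endothelium and macrophage markers 0 passed by limma in a pairwise comparison, with 1 higher and 0 lower at an unadjusted p under 0.05 in phrenic against C3-C5 GFP-only neurons.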
